A study of Homo sapiens with 4 samples.

Results

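The genes described here encode the proteins that hold neighbouring cells together: cadherins, nectins and their relatives, junctional adhesion molecules (JAMs), claudins, the proteins of the desmosome, and cell adhesion molecules of the immunoglobulin family. They were set by a list of 59 genes, of which 38 were found among the probe sets of the array, 35 through the platform annotation and 3 through the held rows of the supplementary results table. In all, 16098 of the 53617 probe sets have a gene name in that annotation. No probe set was found for the cadherin genes CDH1, CDH3, CDH4, CDH5, CDH6, CDH7, CDH8, CDH10, CDH11, CDH12, CDH13, CDH17, CDH18 and CDH24, nor for CTNNA1, CTNND1, CADM2, CXADR, GJA1, GJC1 and AFDN, and these 21 genes were not analysed here. E-cadherin, most other cadherins, the listed catenins other than plakoglobin and the gap junction genes are thus outside what follows.

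Hap1 is a human line with a near-haploid genome, originally from a chronic myelogenous leukaemia, and it grows attached to the dish. Baz2B-KO is a purchased Hap1 line in which CRISPR-Cas9 removed a short stretch from a coding exon of BAZ2B, a regulatory subunit of chromatin remodelling complexes. Total RNA of the unedited parental line (Hap1 control, 2 arrays) and of Baz2B-KO (2 arrays) was hybridised to Affymetrix whole-transcript arrays. Both lines were grown in the same serum-supplemented medium, kept apart from each other and detached with trypsin before the RNA was taken. There was 1 edited line and 1 parental line, so the loss of Baz2B cannot be told apart from other differences between these lines, and no source says that the arrays of 1 line stem from different cultures. The spread behind the p-values is that between these 4 arrays and may be only technical.

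In a sheet of cells, adherens junctions join the actin skeletons of neighbours through cadherins and nectins, desmosomes join their keratin filaments through desmogleins and desmocollins, and tight junctions seal the space between them through claudins, occludin and JAMs. Plaque proteins such as plakoglobin, the plakophilins and the zonula occludens proteins tie these receptors to the skeleton. Epithelial cells use the full set, and cells that become mesenchymal typically replace E-cadherin by N-cadherin.

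Values are log2 intensities after robust multi-array averaging (RMA), which corrects the background and makes the arrays alike. Probe sets above 3.5 in at least 2 arrays and with a gene name were tested with limma, 11235 in all, and where a gene had more than 1 probe set the brightest stands for it. The array medians lay between 3.53 and 3.55. The correlation over the tested probe sets was 0.989 between the controls and 0.992 between the Baz2B-KO arrays. It was 0.983 to 0.987 between arrays of different lines. Sizes of the gaps in log2 intensity did not group the controls in this way. A tested probe set typically (median) differed by 0.148 within the control pair and by 0.115 within the Baz2B-KO pair. Among pairs of different lines, only control 1 with Baz2B-KO replicate 2 had a wider gap than the controls (0.161). Control 2 with Baz2B-KO replicate 2 had the narrowest of these (0.119). The knocked-out gene itself has no named probe set and was not analysed here. Of the markers of other states, the summed log2 intensity of the 8 named epithelial markers was 33.7 to 34.8 in the control and 34.4 to 35.9 in Baz2B-KO, with 3 of the 8 under the limit on all arrays. The 8 named mesenchymal markers, 3 of them under the limit throughout, had a sum of 36.0 in both controls and 34.9 to 35.1 in Baz2B-KO. That of the 6 named endothelial markers, 5 of them under the limit on all arrays, was 15.6 to 15.7 and 16.7. The 7 blood markers, 2 of them under the limit on all arrays, had sums of 23.7 to 24.2 and 24.1. The 7 neural markers, 3 of them under the limit on all arrays, had sums of 28.4 to 28.9 and 28.0 to 28.1. The 1 tested endothelial marker, ERG, had a log2 fold change of -0.02, so the higher endothelial sum came from markers under the limit. The 5 tested epithelial markers had log2 fold changes from -0.29 for KRT8 to 0.64 for ESRP1. Those of the 5 tested mesenchymal markers went from -0.27 to -0.16. No tested marker passed the test, and the part of these differences in the results below was not tested.

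Among the junction and adhesion genes tested, CADM1 was higher and JAM2 was lower in Baz2B-KO, and the others did not pass the test. Of the 30 members tested from the platform annotation, 1 rose and 1 fell, while 28 did not pass, at an adjusted p under 0.05 from limma, against 0.668% of all tested probe sets called in either direction (0.276% higher, 0.392% lower). The gene that rose, CADM1, met the intensity limit only on the Baz2B-KO arrays, the group in which it is high, so its count is no support for a rise among the members. The median log2 fold change of the 30 members was -0.01, beside 0.02 over all tested probe sets, and the median size of the change was 0.08 beside 0.10. The arrays of the lines did not overlap for 9 of the 30 members, 2 with both Baz2B-KO arrays above and 7 with both below, and of all tested probe sets 37.8% were without overlap, 21.9% with Baz2B-KO above and 15.9% with Baz2B-KO below. At an unadjusted p under 0.05 there were 6 members (CADM1, JAM2, PKP2, DSC2, CLDN12 and TJP3), where 9.85% of the tested probe sets reach that level. The 95% interval of the log2 fold change lay within 0.5 of 0 on both sides for 23 of the 30 members (76.7%), a share near the 74.1% of all tested probe sets. Outside that range were the same 6 genes and ESAM.

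**Figure D1:**
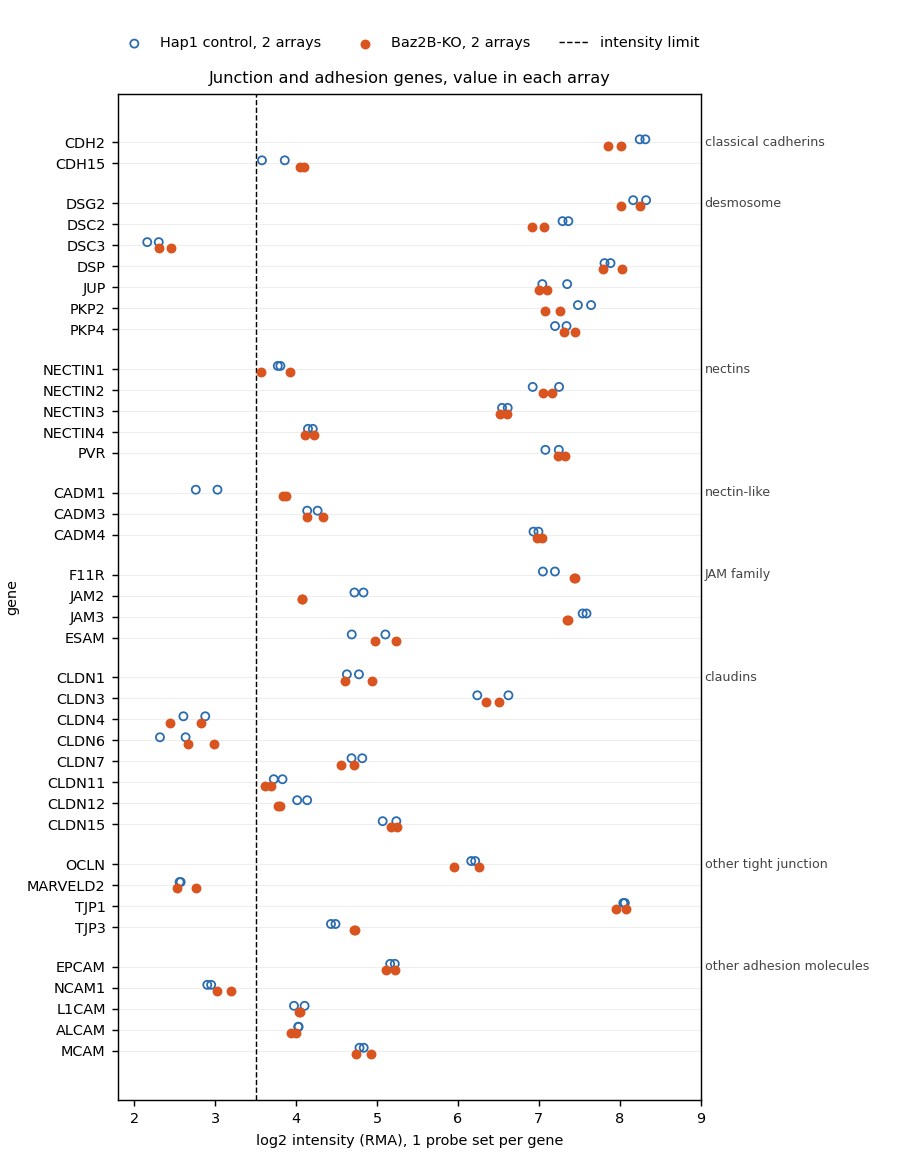
Log2 intensity (x axis) of the 38 junction and adhesion genes found (y axis, grouped by junction type) in each Hap1 control array (open circles) and each Baz2B-KO array (filled circles), with the intensity limit of 3.5 as a dashed line. CADM1 has both controls below the limit and both Baz2B-KO arrays above it, and JAM2 has both Baz2B-KO arrays below both controls.

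CADM1 encodes a nectin-like adhesion molecule that binds itself and other members of its family on the neighbouring cell and is known as a tumour suppressor of lung cancer. Its log2 intensity was 3.03 and 2.76 in the controls and 3.87 and 3.83 in Baz2B-KO. Both controls lay under the limit and both Baz2B-KO arrays just above it, so CADM1 entered the test only through Baz2B-KO. Its log2 fold change was 0.96, a fold of 1.95 (standard error 0.127, 95% interval 0.66 to 1.26, adjusted p = 0.0252 from limma). RMA compresses differences near the background, so this fold change of a dim probe set may understate the change. Entry through Baz2B-KO alone and the choice of a gene that passed may overstate it. Neither was tested. The other probe set of CADM1 is dimmer still, with 1.58 and 2.28 in the controls and 2.16 and 2.48 in Baz2B-KO. Its arrays overlapped, and its log2 fold change of 0.39 (standard error 0.226) did not pass (adjusted p = 0.680 from limma). The rise of CADM1 thus rests on 1 of its 2 probe sets, and without any 1 of the 4 arrays it did not pass (adjusted p of 0.111 to 0.208 from limma).

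The other nectin-like genes tested were brighter and near 0 in change. CADM4, which in rodents binds CADM3 in myelinated nerve, had a log2 fold change of 0.04 (95% interval -0.21 to 0.30). CADM3 had one of 0.03 (95% interval -0.26 to 0.32), and its other probe set one of 0.05. CADM1 thus differed in call from CADM3 and CADM4, a difference that was not tested, and CADM2 was not analysed.

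JAM2 encodes JAM-B, a junctional adhesion molecule best known from vascular endothelium, where it binds JAM-C. Its log2 intensity was 4.72 and 4.83 in the controls and 4.07 in each Baz2B-KO array. All 4 arrays were above the limit and the lines did not overlap. The log2 fold change was -0.71, a fold of 1.63 lower (standard error 0.110, 95% interval -0.96 to -0.45, adjusted p = 0.0479 from limma). That p lies just under the threshold, and without any 1 array JAM2 did not pass (adjusted p of 0.210 to 0.267 from limma).

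JAM3, which encodes the JAM-C partner, had 7.54 and 7.59 in the controls and 7.35 and 7.36 in Baz2B-KO. Both Baz2B-KO arrays were below both controls, and the log2 fold change of -0.21 (95% interval -0.46 to 0.04) did not pass the test (adjusted p = 0.615 from limma). ESAM, an adhesion molecule of endothelium and platelets, had overlapping arrays and a log2 fold change of 0.21 with a wide interval of -0.18 to 0.59. F11R, which encodes JAM-A of epithelial tight junctions, had 7.05 and 7.20 in the controls and 7.45 and 7.43 in Baz2B-KO. Its arrays did not overlap, and it did not pass either (log2 fold change 0.32, 95% interval 0.05 to 0.58, adjusted p = 0.423 from limma). F11R is named only by the supplementary table, whose held rows are those of lowest p, so it was included because its p was low.

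**Figure D2:**
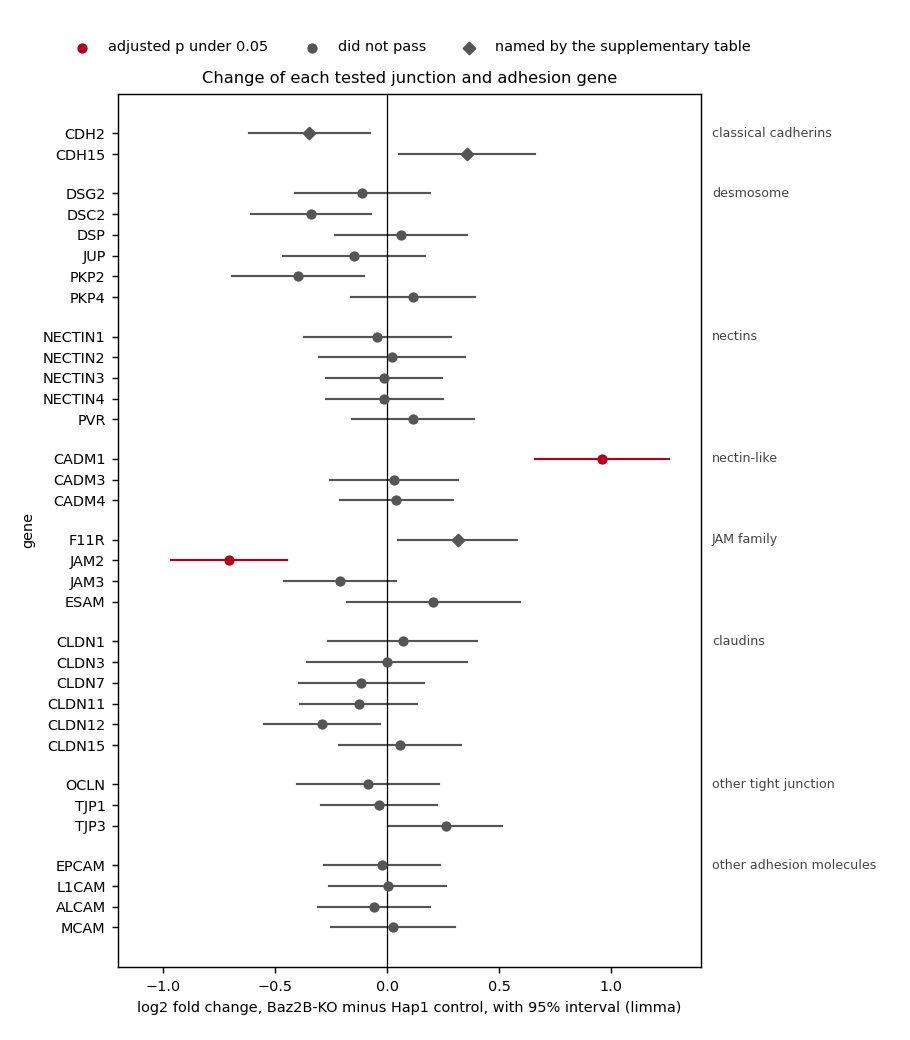
Log2 fold change, Baz2B-KO minus Hap1 control, with its 95% interval from limma (x axis) for the 33 junction and adhesion genes with a test (y axis, grouped by junction type). Genes that passed are in red, and diamonds mark the 3 genes named by the supplementary table. The intervals of CADM1 (0.66 to 1.26) and JAM2 (-0.96 to -0.45) lie farthest from 0, and most of the others cross 0.

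None of the 6 desmosomal genes tested passed, and those for a plaque protein and for a desmosomal cadherin had lower values on both Baz2B-KO arrays. Of all tested probe sets, 37.8% were without overlap between the lines, 15.9% with Baz2B-KO below. PKP2, which encodes a plakophilin that anchors desmosomal cadherins to the plaque, had 7.48 and 7.65 in the controls and 7.26 and 7.07 in Baz2B-KO. The lines did not overlap, with a log2 fold change of -0.40 (95% interval -0.69 to -0.11, adjusted p = 0.348 from limma). DSC2, the desmocollin gene, had 7.36 and 7.29 in the controls and 7.06 and 6.91 in Baz2B-KO. It too was without overlap, with a log2 fold change of -0.34 (95% interval -0.61 to -0.07, adjusted p = 0.389 from limma). The desmoglein gene DSG2, which had a log2 fold change of -0.11, the desmoplakin gene DSP (0.06), the plakoglobin gene JUP (-0.15) and PKP4 (0.11), a relative of p120 catenin, had overlapping arrays. The median of the 6 genes was -0.13, and 4 of them were below 0. DSC3 stayed under the limit, at 2.16 to 2.45 over the 4 arrays.

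Of the classical cadherins, CDH2 and CDH15 were found, both through the supplementary table and therefore because their p was low. CDH2 encodes N-cadherin, the cadherin of neural and mesenchymal cells, and had 8.32 and 8.25 in the controls and 8.02 and 7.85 in Baz2B-KO. The lines did not overlap, and the log2 fold change of -0.35 (95% interval -0.62 to -0.08) did not pass (adjusted p = 0.381 from limma). CDH15, the M-cadherin gene of muscle, was dim, with 3.58 and 3.86 in the controls and 4.09 and 4.05 in Baz2B-KO. It had a log2 fold change of 0.36 (95% interval 0.05 to 0.66) and did not pass (adjusted p = 0.432 from limma). The arrays of the lines did not overlap for either gene, as for 37.8% of all tested probe sets. They were added to the tested probe sets 1 at a time and are not among the 30 members counted above.

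The nectins had log2 fold changes between -0.04 and 0.12. Nectins start cell contacts and hand them on to cadherins. The largest was that of PVR, the poliovirus receptor and a nectin-like ligand of receptors on natural killer cells, with 7.08 and 7.25 in the controls and 7.24 and 7.32 in Baz2B-KO (95% interval -0.16 to 0.39). The arrays of all 5 tested genes, NECTIN1, NECTIN2, NECTIN3, NECTIN4 and PVR, overlapped between the lines. Their adjusted p was at least 0.845 in limma. The 2 controls of NECTIN2, at 6.92 and 7.25, lay farther apart than its 2 Baz2B-KO arrays, at 7.05 and 7.16.

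At the tight junction, CLDN12 was lower and TJP3 higher on both Baz2B-KO arrays, and neither passed the test. CLDN12, a claudin linked to paracellular calcium transport in gut epithelial cells, had 4.13 and 4.01 in the controls and 3.79 and 3.77 in Baz2B-KO. Its log2 fold change was -0.29 (95% interval -0.55 to -0.03, adjusted p = 0.452 from limma). TJP3, the gene of the scaffold protein ZO-3, had 4.49 and 4.43 in the controls and 4.71 and 4.73 in Baz2B-KO. Its log2 fold change was 0.26 (95% interval 0.01 to 0.51, adjusted p = 0.495 from limma). Both genes were dim and had arrays without overlap, as had 37.8% of all tested probe sets. Of the other claudins, CLDN1 (0.07), CLDN3 (0.00), CLDN7 (-0.12), CLDN11 (-0.13) and CLDN15 (0.06) had small log2 fold changes, and CLDN11, the claudin of myelin, had both Baz2B-KO arrays slightly below both controls. The occludin gene OCLN had a log2 fold change of -0.08, and TJP1, which encodes ZO-1, had one of -0.03 (95% interval -0.29 to 0.22) at an intensity of 7.96 to 8.08. CLDN4, CLDN6 and MARVELD2, which encodes tricellulin, lay under the limit on all 4 arrays. Of these, CLDN6, a claudin of early embryonic epithelia, had 2.32 and 2.63 in the controls and 2.67 and 2.98 in Baz2B-KO.

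The adhesion molecules outside these junctions had the smallest spread of changes, from -0.06 to 0.03 on the log2 scale over 4 tested genes. ALCAM, an immunoglobulin family molecule that binds CD6 on T cells, was the largest in size, with 4.02 and 4.03 in the controls and 3.94 and 3.99 in Baz2B-KO. Its arrays did not overlap, but the log2 fold change of -0.06 had a 95% interval of -0.31 to 0.19. EPCAM, which marks epithelial cells, had a log2 fold change of -0.02 (95% interval -0.28 to 0.23) and was above the limit on all 4 arrays, at 5.11 to 5.22. The neural adhesion gene L1CAM (0.00) and the melanoma adhesion gene MCAM (0.03) had overlapping arrays. NCAM1 lay under the limit, at 2.90 to 3.20.

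**Figure D3:**
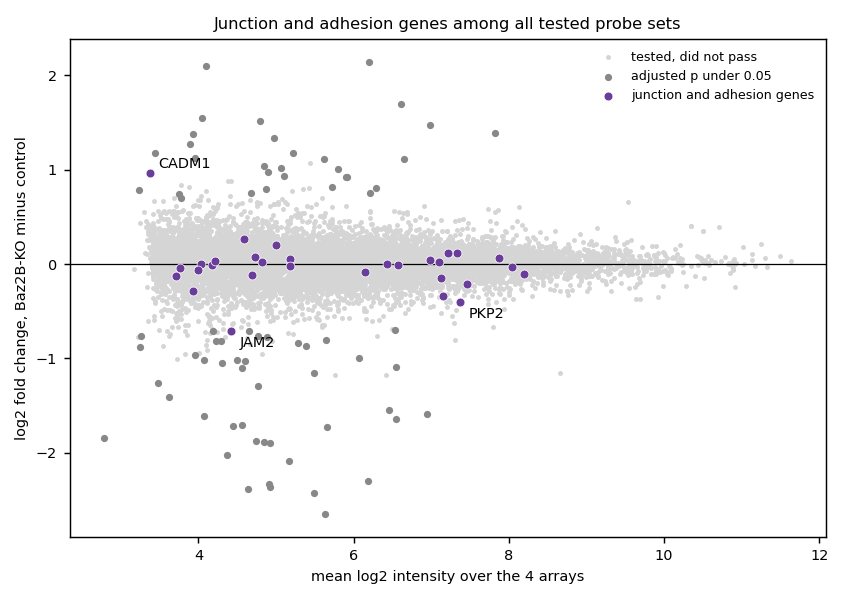
Log2 fold change, Baz2B-KO minus Hap1 control (y axis), against the mean log2 intensity over the 4 arrays (x axis) for the 11235 tested probe sets in grey, darker where the adjusted p was under 0.05, with the 30 tested junction and adhesion genes in purple. CADM1 (0.96) and JAM2 (-0.71) lie at low intensity, and most of the other members lie in the dense band around 0.

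The order of genes along the chromosome, taken from RefSeq, put JAM2 near a second gene that was lower. Of the 10 tested genes next to JAM2 on chromosome 21, 5 on each side, CYYR1, which encodes a cysteine- and tyrosine-rich membrane protein, passed the test. It had 6.51 and 6.63 in the controls and 5.71 and 5.44 in Baz2B-KO, without overlap, at a log2 fold change of -0.99 with a standard error of 0.132 (adjusted p = 0.0253 from limma). APP, the amyloid precursor gene, stands between JAM2 and CYYR1 among the tested genes and had a log2 fold change of -0.12 (adjusted p = 0.835 from limma). The 10 neighbours of CADM1 on chromosome 11 had log2 fold changes between -0.27 and 0.30, and none passed (lowest adjusted p = 0.450 from limma). Of all tested probe sets, 0.668% passed, and CYYR1 was singled out after its value was seen. Of the members found, 6 lie on chromosome 11 (CADM1, ESAM, JAM3, MCAM, NCAM1 and NECTIN1), and 4 lie on chromosome 18 (CDH2, DSC2, DSC3 and DSG2). Chromosomes 3, 7 and 19 also hold 4 each.

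**Figure D4:**
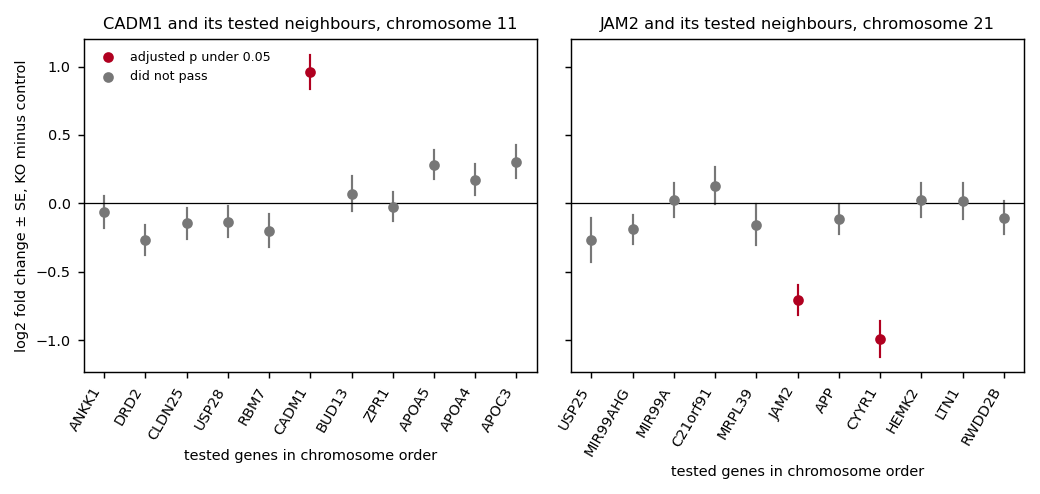
Log2 fold change, Baz2B-KO minus Hap1 control, with its standard error from limma (y axis) for CADM1 (left) and JAM2 (right) and the 5 tested genes on each side, in chromosome order without distances (x axis). Genes that passed are in red, and CYYR1 (-0.99) is the 1 neighbour that did.

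The promoters of some junction genes carry the E-box CAGGTG, the letters read by the repressors SNAI1 and ZEB1, which turn down epithelial genes in mesenchymal cells. RefSeq windows (GRCh38.p14) of 250 bases before the gene start were available for 28 of the members found, 40 windows in all. The letters CAGGTG on either strand, that is CAGGTG or CACCTG, which cannot overlap in the same bases, were in 14 of the 40 windows (35.0%) and in 17.5% of the 35116 windows of all genes. The base composition of these windows was not matched. The windows shown are those of the members with an unadjusted p under 0.05 that hold the letters, DSC2 and TJP3, and that of CLDN7, which holds them 4 times. Each of these 3 genes has a second window without the letters. No window of CADM1, JAM2 or PKP2 was searched here. Each window shown is written 5′ to 3′ on the strand of its gene, and the capitals mark the E-box letters.
DSC2, chr18:31102422-31102671, minus strand: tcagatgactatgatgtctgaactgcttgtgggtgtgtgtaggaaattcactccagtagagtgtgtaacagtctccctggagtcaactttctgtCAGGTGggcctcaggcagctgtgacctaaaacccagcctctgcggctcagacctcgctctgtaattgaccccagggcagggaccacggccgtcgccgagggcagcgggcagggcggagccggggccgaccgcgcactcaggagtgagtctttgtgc
TJP3, chr19:3721487-3721736, plus strand: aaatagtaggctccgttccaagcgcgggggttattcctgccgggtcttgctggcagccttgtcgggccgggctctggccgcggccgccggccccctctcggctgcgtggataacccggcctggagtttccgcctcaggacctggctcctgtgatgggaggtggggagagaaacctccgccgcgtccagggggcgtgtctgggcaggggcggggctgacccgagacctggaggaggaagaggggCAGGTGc
CLDN7, chr17:7262479-7262728, minus strand: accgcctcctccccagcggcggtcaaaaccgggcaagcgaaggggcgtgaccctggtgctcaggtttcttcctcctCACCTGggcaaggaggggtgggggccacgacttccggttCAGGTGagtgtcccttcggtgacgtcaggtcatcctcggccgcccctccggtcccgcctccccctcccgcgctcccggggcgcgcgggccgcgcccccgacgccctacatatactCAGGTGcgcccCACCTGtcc
A match is a description of these letters and says nothing of binding. Beside them, DSC2 had a log2 fold change of -0.34, TJP3 one of 0.26 and CLDN7 one of -0.12, with 4.68 and 4.82 in the controls and 4.55 and 4.71 in Baz2B-KO for CLDN7. Of the genes of the factors, ZEB1 had a log2 fold change of -0.26 (95% interval -0.58 to 0.05) and SNAI1 one of -0.13 (95% interval -0.39 to 0.14), and neither passed.

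None of the 56 tested genes in 4 lists around the junctions passed the test in limma, with 6 at an unadjusted p under 0.05. Of all tested probe sets, 0.668% passed and 9.85% reached that unadjusted level, so neither count sets these lists apart. Of 17 tested genes of junction plaques and scaffolds, the largest change was that of MPDZ, which encodes a scaffold with many PDZ domains at tight junctions. It had 6.48 and 6.60 in the controls and 5.87 and 6.01 in Baz2B-KO, without overlap, at a log2 fold change of -0.60 with a standard error of 0.117 (adjusted p = 0.103 from limma). The median of that list was 0.00. Of 12 transcription and splicing factors of the epithelial and mesenchymal state, the largest was that of ESRP1, an epithelial splicing regulator. It had 4.45 and 4.42 in the controls and 5.15 and 5.01 in Baz2B-KO at a log2 fold change of 0.64 with a standard error of 0.112 (adjusted p = 0.0734 from limma), and the median of the list was -0.07. ESRP1 did not overlap between the lines. It passed only with the stricter intensity limit (adjusted p = 0.0469 from limma) and with median centring (adjusted p = 0.0431 from limma). The main fit and the other alternatives did not call it. Both of its controls lay under the stricter limit of 4.5. It thus entered that fit only through Baz2B-KO, the group in which it is high, so that pass is no support. Of 15 large and solitary cadherin-superfamily genes, PCDH7, a protocadherin gene, had 3.82 and 4.18 in the controls and 3.34 and 3.58 in Baz2B-KO (log2 fold change -0.54, adjusted p = 0.290 from limma), and the median was -0.05. Of 12 sheddase and trafficking genes, which cut or recycle junction proteins, NCSTN of the gamma-secretase complex was the largest in size at -0.19, and none reached an unadjusted p under 0.05.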

How the data were processed

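Transcripts were measured on 4 Affymetrix arrays, 2 of the Hap1 control and 2 of Baz2B-KO. Array files were imported by the authors with the oligo package and normalised by RMA. Versions of either are not given in the sources used here. Each deposited value is the log2 intensity of 1 probe set on 1 array. The precision is limited by the number of arrays, and an exact two-sided permutation test of 2 against 2 could not go below 0.333.

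Arrays were assigned by their labels. Probe sets above 3.5 in at least 2 arrays with a gene in the platform annotation were tested (11235 of 27722 retained) with lmFit and eBayes of limma 3.58.1 in R 4.3.3, without covariates, with Benjamini-Hochberg adjustment over all of them. Probe sets named only by the supplementary table (1999 held rows, of lowest p) were given the same prior and adjusted as 1 added probe set. That table's own fold changes and p-values were not used. The fit was tested on simulated data with independent noise. Of the changes put in, only the largest, which exceeded those of the members, had to be recovered. The recovery of changes of the members' size is not given here. The members, the lists and the rule for named genes were chosen with earlier results of these data known. Array values are given for members that passed and for the largest change in each junction group, with further members chosen after their values were seen. The alternatives were other intensity filters, all retained probe sets, other eBayes settings and a replicate block. Further ones were each array left out, 2 scalings and averaging the tested probe sets of each gene. Figures were drawn with matplotlib 3.10.9.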

Additional observations from a re-analysis of the deposited data

How the results depend on the processing

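With 2 arrays per line, the calls of the members were not stable. CADM1 kept its direction in all 13 alternatives that gave a value, with log2 fold changes of 0.39 to 1.09, and passed in 5 of them. The 0.39 is that of its other probe set, an alternative chosen after seeing the data. JAM2 kept its direction in 13 alternatives, at -0.76 to -0.65, and passed in 5. Averaging took in tested probe sets only, and the other probe set of CADM1 was under the limit. It thus left the values of CADM1 and JAM2 unchanged, and the mean of both CADM1 probe sets was not tested. With no intensity filter, limma called 0 members higher and 0 lower (16 probe sets higher and 25 lower over all, 1389 at an unadjusted p under 0.05). With all retained probe sets tested it called 0 and 0 members (4 and 22 probe sets, 2321 at an unadjusted p under 0.05). With the stricter limit of 4.5, CADM1 was not tested and 0 members were higher. JAM2 met that limit only on the control arrays, the group in which it is high, so its pass there is no support. With an intensity trend 0 members were lower (JAM2, adjusted p = 0.0687 from limma). With the replicate number as a block, 0 members were higher and 0 lower, and 13 and 25 probe sets passed (1374 at an unadjusted p under 0.05, CADM1 with an adjusted p of 0.0617 and JAM2 with one of 0.0908 from limma). The arrays share only a number: same-numbered arrays deviated together with a correlation of 0.158 over the tested probe sets, and the lines have 2 numbers. Without 1 array, limma called 0 members higher and 0 lower in each of the 4 fits, where 0 to 15 probe sets were higher and 0 to 27 lower, and 711 to 1419 were at an unadjusted p under 0.05. Both fits without 1 control had no call at all (lowest adjusted p of 0.0542 without control replicate 1 and 0.0564 without control replicate 2). A fit of 3 arrays assumes that the lone array varies like those of the other line. CYYR1 did not pass with no intensity filter, with all retained probe sets, with the block or without either control or Baz2B-KO replicate 2 (adjusted p of 0.0630 to 0.230 from limma). The median log2 fold change of the members tested stayed between -0.05 and 0.00 in all alternatives. The cause of the lost calls was not tested.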
